A study of Bos taurus with 111 samples.

Results

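MYH8 (ENSBTAG00000009702) and ACTC1 (ENSBTAG00000005714) are contractile protein genes of developing muscle, and their transcripts were followed in longissimus muscle biopsies of steers. The 2 genes were chosen by name from the 24616 genes counted, with earlier results of these data known. Both are named in the study's own gene lists, so the ranks of their p-values here are not independent of that choice. Their levels were read in 104 libraries from 77 of the 83 steers, with 7 libraries of the series left out. MYH8 encodes the perinatal (neonatal) myosin heavy chain, the motor protein of the thick filament in late fetal and newborn fibres. ACTC1 encodes cardiac alpha-actin, the main thin-filament actin of the heart, which embryonic skeletal muscle also makes before skeletal alpha-actin replaces it. Both genes are largely silenced in adult limb and trunk fibres and are known to return in fibres that regenerate after injury. MYH8 also remains in a few specialised adult muscles, such as those of the eye and jaw, and in the fibres inside muscle spindles.

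The steers were Charolais (CH), a beef breed, and Holstein-Friesian (HF), a dairy breed, fed individually through 3 periods of 70 days. In the first (H1) and the last (H2) they received barley-based concentrate with a restricted allowance of grass silage, and in between they received zero-grazed grass (ZG), which is fresh herbage cut and carried to the animals. Mean age at the start of H1 was 283 days in CH and 306 days in HF, and mean body weight at the start of H1, ZG and H2 was 395, 519 and 675 kg in CH and 294, 441 and 611 kg in HF, so diet, age and weight changed together and cannot be told apart. Residual feed intake (RFI) is the intake of an animal beyond what its weight and growth predict (the labels list the change in lumbar BF as a further term, the methods do not), and the most efficient (L-RFI) and least efficient (H-RFI) steers of each breed were biopsied at the end of each period. The 12 groups of breed, period and RFI class held 7 to 11 libraries each, and 25 of the 77 steers gave more than 1 library. RFI was ranked anew in each period, and 8 of the 77 steers had libraries in both RFI classes.

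Between 2201760 and 52552057 reads were counted on genes per library. Levels are given as reads of the gene per 1000000 reads counted on genes (CPM), which are not corrected for gene length. Of the 7 left out, 6 had under 1000000 gene counts (4019 to 592192), and the ZG library of steer 571 held 101449 CPM of the liver transcript ALB against a median of 68.6 CPM and a highest value of 8576 CPM in the libraries kept. The defining markers of skeletal muscle fibres, satellite cells, smooth muscle, heart muscle, endothelium, red blood cells and Schwann cells had no gene identifier in the name list used here, so the tissue label was not checked against them. In RefSeq's gene order MYH8 lies in the myosin cluster between MYH13 and MYH4, and reads of 50 bases that fit several genes equally were not counted, so the counts come from the stretches in which each gene differs from its neighbours or, for ACTC1, from the other actins.

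Both transcripts were present in every library and varied widely between steers. MYH8 ranged from 1.07 to 275 CPM with a median of 23.9 CPM, and ACTC1 ranged from 1.97 to 336 CPM with a median of 10.8 CPM. The lowest MYH8 value rested on 14 reads (95% exact Poisson interval 0.587 to 1.80 CPM) and the highest on 7524 reads (268 to 281 CPM), and these intervals cover counting error only. The SD of log2(CPM + 0.5) across libraries was 1.34 for MYH8 and 1.27 for ACTC1, at percentile 97.8 and percentile 96.2 of the 10291 genes that reached 1 CPM in 50% or more of libraries, for which the median SD was 0.63. MYH8 had more reads than ACTC1 in 77 of the 104 libraries, a count that gene length also shapes. In whole-tissue RNA, fewer cells or fibres with a transcript and less of it per cell cannot be told apart.

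**Figure D1:**
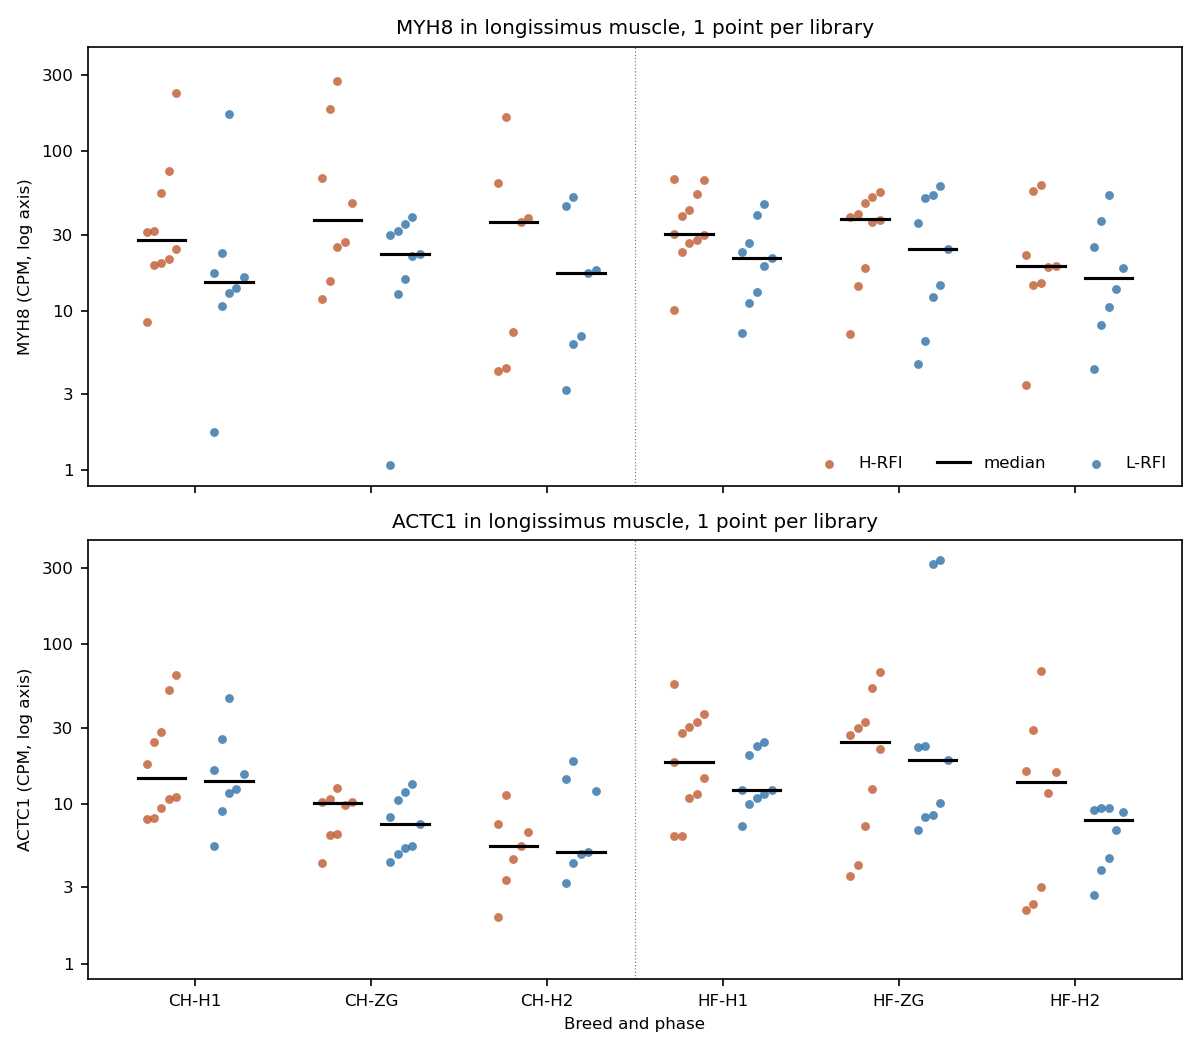
Levels of MYH8 (top) and ACTC1 (bottom) in CPM on a log axis for each of the 104 libraries, by breed and period, with L-RFI and H-RFI libraries side by side and a bar at each group median. A few libraries stand far above their groups, up to 275 CPM for MYH8 in CH-ZG H-RFI and 321 and 336 CPM for ACTC1 in HF-ZG L-RFI.

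The contrast of L-RFI with H-RFI steers asks whether either transcript differed with feed efficiency. In each of the 6 comparisons the median MYH8 level of the L-RFI group lay under that of the H-RFI group, but no comparison passed the thresholds, which were a Benjamini-Hochberg adjusted p under 0.1 and a fold change above 1.5. In CH-H1, MYH8 ranged from 1.73 to 172 CPM in the 8 L-RFI libraries (median 15.1) and from 8.49 to 231 CPM in the 10 H-RFI libraries (median 27.9). In CH-ZG the 9 L-RFI libraries ranged from 1.07 to 38.8 CPM (median 22.8) and the 8 H-RFI libraries from 11.8 to 275 CPM (median 37.2). The 7 and 7 libraries of CH-H2 had medians of 17.3 CPM (3.18 to 51.9) and 35.9 CPM (4.19 to 165). The classes overlapped in all 3 periods, and the highest library of each period was an H-RFI one.

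In HF the spread of MYH8 was narrower, with no library over 67.2 CPM. The L-RFI and H-RFI medians were 21.5 CPM (7.31 to 46.8, n = 9) and 30.1 CPM (10.1 to 67.2, n = 11) in H1, 24.4 CPM (4.66 to 60.5, n = 9) and 37.6 CPM (7.21 to 55.7, n = 10) in ZG, and 16.2 CPM (4.35 to 53.1, n = 8) and 19.1 CPM (3.43 to 61.1, n = 8) in H2. Here too the classes overlapped throughout.

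The log2 fold change of MYH8 in L-RFI against H-RFI steers of CH was -0.74 ± 0.69 (SE) in H1, -1.66 ± 0.57 in ZG and -1.28 ± 0.74 in H2. In HF it was -0.54 ± 0.27 for H1, -0.02 ± 0.34 for ZG and -0.18 ± 0.41 for H2. The smallest unadjusted p was 0.00908 in CH-ZG, the 5th smallest of 9823 genes, with an adjusted p of 0.9998 by edgeR's quasi-likelihood test. Single H-RFI libraries carried part of the CH values: without steer 1320 the CH-H1 value was 0.0092 ± 0.60, without steer 419 the CH-H2 value was -0.15 ± 0.59, and without steer 449 the CH-ZG value was -1.12 ± 0.53. Without the L-RFI steer 1101 the CH-H1 value was -1.93 ± 0.62. In these comparisons the test called 0% of genes in any of the 6, while an unadjusted p under 0.05 was found for 216, 79 and 89 genes in H1, ZG and H2 of CH and for 317, 1228 and 72 genes in those of HF. DESeq2 called 2, 0 and 2 genes for CH and 0, 1 and 0 genes for HF, MYH8 and ACTC1 not among them.

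Over the 6 comparisons in one edgeR model, the mean log2 fold change of MYH8 was -0.74 ± 0.23, with an unadjusted p of 0.00188 (the 16th smallest of 10291 genes) and an adjusted p of 0.668. That test called 0% of genes, with 577 at an unadjusted p under 0.05. A permutation test of the RFI classes within breed and period was added after seeing the data. It gave a mean difference of -0.74 in log2(CPM + 0.5) with p = 0.00592 over all 104 libraries. Over the first library of each of the 77 steers it gave -0.68 with p = 0.107, with as few as 2 libraries in a group. Both are on CPM without TMM scaling, where the median of all genes differed by -0.28 (HF-ZG) to 0.0096 (CH-H1). After TMM scaling the 6 MYH8 differences ran from -1.19 (CH-ZG) to -0.20 (HF-H2), with permutation adjusted p from 0.337 to 0.677. The mean of these 6 was not tested. In edgeR the mean of the 3 CH log2 fold changes minus that of the 3 HF ones was -0.98 ± 0.46 (unadjusted p = 0.0363, adjusted p = 0.879, 0% of genes called and 279 at an unadjusted p under 0.05). With the steer as a block in limma the mean over the 6 comparisons was -0.59 ± 0.24 (unadjusted p = 0.0134, adjusted p = 0.592). The CH mean minus the HF mean was then -0.63 ± 0.47 (limma unadjusted p = 0.181). Adipocyte transcripts moved in the same direction: the summed level of 3 markers (FABP4, CIDEC and THRSP, of 5 listed) had a higher median in H-RFI than in L-RFI steers in all 6 comparisons (FABP4 and THRSP in 6 each, CIDEC in 4 of 6), such as 21.3 CPM (6.92 to 95.8) against 4.29 CPM (0.995 to 12.3) in CH-H2 and 25.6 CPM (3.32 to 131) against 8.36 CPM (2.37 to 78.7) in HF-ZG. The study itself had picked these 3 markers from the same samples. The summed level of 5 of 5 leukocyte markers was likewise higher in H-RFI steers in 5 of 6 comparisons, with the widest gap in HF-ZG at 24.2 CPM (3.99 to 148) against 6.52 CPM (2.31 to 28.0). For 5 of 6 liver and plasma protein markers the summed level was higher in H-RFI steers in 4 of 6 comparisons (AHSG and HPX in 2 each). The fibroblast marker POSTN was higher in H-RFI steers in 3 of 6. The part of these markers in the MYH8 values was not tested.

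ACTC1 showed no common direction between RFI classes. Its log2 fold change in CH was -0.45 ± 0.46 for H1, 0.06 ± 0.34 for ZG and 0.73 ± 0.43 for H2. The HF values were -0.29 ± 0.39 for H1, 1.76 ± 0.74 for ZG and -1.76 ± 0.74 for H2, and no comparison passed the thresholds. The study lists ACTC1 as lower in L-RFI steers of CH-H2, the opposite sign to the 0.73 here. It also lists ACTC1 as higher in L-RFI steers of HF, in H2 by its table and in ZG by its discussion. In HF-ZG the 9 L-RFI libraries ranged from 6.89 to 336 CPM (median 18.8) and the 10 H-RFI libraries from 3.54 to 67.4 CPM (median 24.6), so the fold change was positive while the L-RFI median was the lower. Steers 1961 (321 CPM) and 2065 (336 CPM) stood above the other 7 L-RFI steers, none of which exceeded 23.2 CPM, and without them the value was -0.37 ± 0.54 (edgeR adjusted p = 0.681, against 0.381 with them). In HF-H2 the 8 L-RFI libraries lay between 2.70 and 9.44 CPM (median 7.92), within the range of the 8 H-RFI libraries, which spread from 2.17 to 67.8 CPM (median 13.8). Without steer 1811, which had the 67.8 CPM, the HF-H2 value was -0.83 ± 0.62.

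The edgeR test that the 6 ACTC1 values differ from each other gave an unadjusted p of 0.0029, the 4th smallest of 10291 genes, and an adjusted p of 0.9999. It called 0% of genes, with 146 at an unadjusted p under 0.05. For MYH8 its unadjusted p was 0.29. Without steers 1961 and 2065 the unadjusted p for ACTC1 was 0.0745 by edgeR. With the steer as a block in limma the unadjusted p for ACTC1 was 0.702. A contrast of CH-H2 with HF-ZG alone gave -1.02 ± 0.87 for ACTC1 and -1.27 ± 0.82 for MYH8 (edgeR adjusted p = 0.72 for both, 0% of genes called, 402 at an unadjusted p under 0.05).

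**Figure D2:**
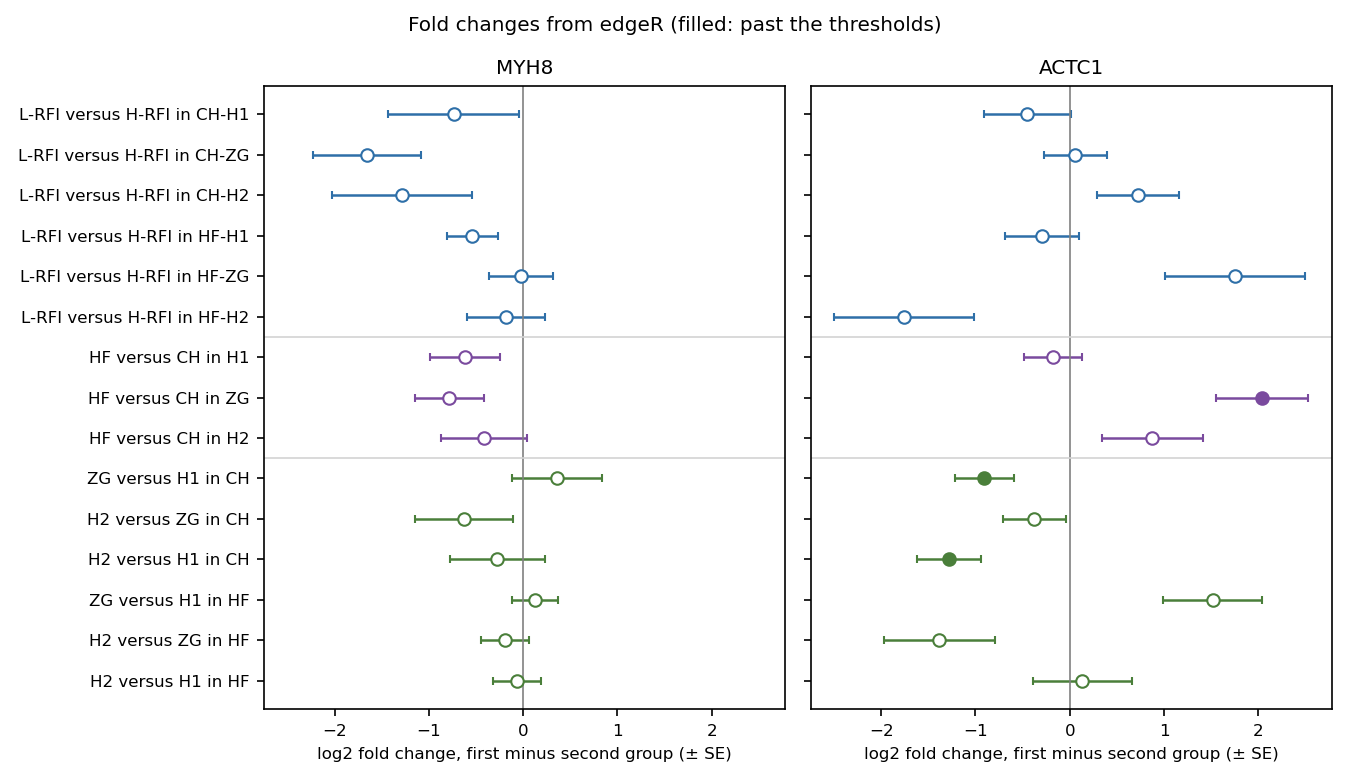
Log2 fold changes of MYH8 and ACTC1 with bars of 1 SE for the 6 comparisons of L-RFI with H-RFI, the 3 of HF with CH and the 6 between periods, filled where the comparison passed the thresholds. MYH8 lies under 0 in every RFI comparison with no filled point, and the filled points are ACTC1 in HF against CH on ZG (2.04) and in CH from H1 to ZG (-0.91) and to H2 (-1.28).

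Between the breeds, ACTC1 was higher in HF than in CH on grass and did not pass the thresholds in the concentrate periods. On ZG it ranged from 3.54 to 336 CPM in the 19 HF libraries (median 22.1) and from 4.27 to 13.3 CPM in the 17 CH libraries (median 8.29), a ratio of medians of 2.67. The CH values were tightly grouped and the HF values reached from within the CH range to far above it. The log2 fold change was 2.04 ± 0.49 with an adjusted p of 0.0911 by edgeR's quasi-likelihood test, which called 0.509% of 10211 genes (52 genes), and 0.00832 by DESeq2. A permutation test on log2(CPM + 0.5) found a difference of 1.39 (p = 0.00138, adjusted over 3 comparisons 0.00414). On the CPM scale the median of all genes was itself 0.30 higher in HF-ZG than in CH-ZG, and after scaling by TMM factors, an alternative added after seeing the data, the ACTC1 difference was 1.12 (permutation p = 0.0116).

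The call lay close to the threshold. Without steers 1961 and 2065 the edgeR value was 1.00 ± 0.34 (adjusted p = 0.262), and when each of the 36 libraries was left out in turn the value stayed between 1.67 and 2.14 and was called in 14 of the 36 fits. The number of genes called on ZG ran from 1 (in 19 of the 36 fits) to 198 (without steer 2242), against 52 with all of them. Markers of other cells also differed between these groups: the summed median of HF-ZG and CH-ZG was 25.1 CPM (2.37 to 131) against 2.92 CPM (0.205 to 82.3) for 3 of 5 adipocyte markers, 10.5 CPM (2.31 to 148) against 3.20 CPM (1.54 to 54.7) for 5 of 5 leukocyte markers, and 142 CPM (20.2 to 14018) against 73.0 CPM (22.4 to 379) for 5 of 6 liver and plasma protein markers. POSTN, the 1 fibroblast marker of 5 that could be matched, had medians of 1.16 and 0.533 CPM and a lowest value of 0 in both breeds. Their part in the ACTC1 difference was not tested.

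In H1 the ACTC1 medians of HF and CH were 13.4 CPM (6.32 to 56.8, n = 20) and 14.0 CPM (5.48 to 64.1, n = 18), with a log2 fold change of -0.18 ± 0.31. In H2 they were 9.07 CPM (2.17 to 67.8, n = 16) and 5.21 CPM (1.97 to 18.5, n = 14), with 0.87 ± 0.54. The breeds overlapped in both periods. edgeR called 1.03% of genes in H1 (110 genes) and 0.01% in H2 (1 gene).

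MYH8 did not pass the thresholds between breeds in any period. HF and CH medians were 27.4 and 20.5 CPM in H1, 36.2 and 26.8 CPM in ZG, and 18.7 and 17.7 CPM in H2. The fitted log2 fold changes were -0.62 ± 0.37, -0.78 ± 0.36 and -0.42 ± 0.45 (edgeR adjusted p = 0.601, 0.332 and 0.9999), while the differences of mean log2(CPM + 0.5) were 0.15, -0.14 and 0.03. The highest HF library reached 67.2 CPM, whereas 5 CH libraries exceeded 100 CPM.

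The comparisons between periods follow diet and age together. In CH, ACTC1 was lower in both later periods than in H1. Its level ranged from 5.48 to 64.1 CPM in the 18 libraries of H1 (median 14.0), from 4.27 to 13.3 CPM in the 17 of ZG (median 8.29) and from 1.97 to 18.5 CPM in the 14 of H2 (median 5.21). The periods overlapped at the low end, and the 2 values over 50 CPM were both of H1. The log2 fold change was -0.91 ± 0.31 from H1 to ZG (adjusted p = 0.0821 by edgeR's quasi-likelihood test, 3.82% of 10087 genes called) and -1.28 ± 0.34 from H1 to H2 (adjusted p = 0.0395, 1.72% called). From ZG to H2 it was -0.37 ± 0.33 and not called, in a comparison that called 1.04% of genes.

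The change from H1 to H2 was called in all 49 fits that left out 1 library, with values from -1.44 to -1.08, and with the steer as a random block in limma (-1.06, adjusted p = 0.0923). The change from H1 to ZG was called in 39 of 49 such fits and not with the block (-0.72, adjusted p = 0.155), and the genes called in that comparison, 385 with all libraries, went from 144 without steer 1843 to 618 without steer 318. On log2(CPM + 0.5) the differences were -1.01 (permutation p = 0.00044) for ZG and -1.34 (permutation p = 0.00032) for H2 against H1. The median of all genes moved by -0.38 and -0.28 on that scale, and after TMM scaling the differences were -0.67 (permutation p = 0.0317) and -1.13 (permutation p = 0.00236). Leukocyte markers (5 of 5) also had lower summed medians in the later periods, with 8.59 CPM (2.22 to 31.9) in H1, 3.20 CPM (1.54 to 54.7) in ZG and 4.07 CPM (1.49 to 49.3) in H2, as did POSTN with 1.13, 0.533 and 0.223 CPM. The matched adipocyte markers were lower in ZG and higher in H2 than in H1. Their medians in H1, ZG and H2 were 1.90, 1.25 and 3.44 CPM for FABP4, 1.60, 1.54 and 3.95 CPM for CIDEC and 2.52, 0.408 and 3.05 CPM for THRSP. Their part in the ACTC1 change was not tested.

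In HF, ACTC1 had its highest median and its widest spread on grass. The medians were 13.4 CPM (6.32 to 56.8) in the 20 libraries of H1, 22.1 CPM (3.54 to 336) in the 19 of ZG and 9.07 CPM (2.17 to 67.8) in the 16 of H2. The log2 fold change was 1.52 ± 0.53 from H1 to ZG (edgeR adjusted p = 0.258), -1.38 ± 0.59 from ZG to H2 (adjusted p = 0.173) and 0.13 ± 0.52 from H1 to H2 (adjusted p = 0.89), none of them called by edgeR. DESeq2 called the first (adjusted p = 0.0824) and the second (adjusted p = 0.0697), and limma with the steer as a block called the second (-1.20, adjusted p = 0.0916). Without steers 1961 and 2065 the edgeR values were 0.26 ± 0.40 from H1 to ZG and -0.26 ± 0.43 from ZG to H2. The 3 HF comparisons called 0.496%, 3.64% and 10.2% of 10478 genes (52, 381 and 1070 genes), and 80, 909 and 2158 genes with the steer as a block.

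Whether the course over periods differed between the breeds, and with it the breed difference between periods, was tested by the interaction of breed and period in limma voom with the steer as a block. The unadjusted p was 0.0418 for ACTC1 and 0.524 for MYH8, with an adjusted p of 0.938 for both. That test called 0% of genes, with 537 at an unadjusted p under 0.05, and edgeR without the block called 1 gene, which was neither of these.

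MYH8 was not called between any periods. Its CH medians were 20.5 CPM (1.73 to 231) in H1, 26.8 CPM (1.07 to 275) in ZG and 17.7 CPM (3.18 to 165) in H2, with log2 fold changes of 0.36 ± 0.48 from H1 to ZG, -0.63 ± 0.52 from ZG to H2 and -0.27 ± 0.51 from H1 to H2. Its HF medians were 27.4, 36.2 and 18.7 CPM, with 0.13 ± 0.24, -0.19 ± 0.26 and -0.07 ± 0.25. In both breeds the highest median was that of ZG and the lowest that of H2, and all periods overlapped.

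Steers sampled in more than 1 period allow the same comparison within animals. All 5 CH steers with libraries of both ZG and H2 had less MYH8 in H2, with a mean difference of -1.45 in log2(CPM + 0.5), from 22.1 to 4.36 CPM in steer 1100, for example. All 5 HF steers with both H1 and H2 likewise had less in H2, with a mean of -1.35. The exact sign-flip test gave p = 0.0625 for each, which is the smallest value that 5 steers allow. Within-steer differences of both genes are on CPM without TMM scaling. On that scale the median of all genes moved by -0.39 from H1 to H2 in HF and by 0.11 from ZG to H2 in CH, over all libraries of those groups. The TMM-scaled MYH8 differences of the same groups were -0.20 (permutation p = 0.452) and -0.79 (permutation p = 0.156). The other pairs of periods were mixed, with MYH8 higher in ZG than in H1 in 3 of 5 CH and 4 of 6 HF steers.

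ACTC1 was lower in H2 than in H1 in 5 of 6 CH steers. The fall was from 64.1 to 4.52 CPM in steer 1320 and from 51.7 to 3.18 CPM in steer 856, while steer 307 had 9.49 and 12.1 CPM. The mean difference was -1.82 with an exact sign-flip p of 0.0625, where 6 steers allow 0.03125. In HF the steers went both ways, and the largest steps were upward, from 11.6 CPM in H1 to 336 CPM in ZG in steer 2065 and from 10.9 CPM in H1 to 67.8 CPM in H2 in steer 1811. Steer 2065 was H-RFI in H1 and L-RFI in ZG.

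**Figure D3:**
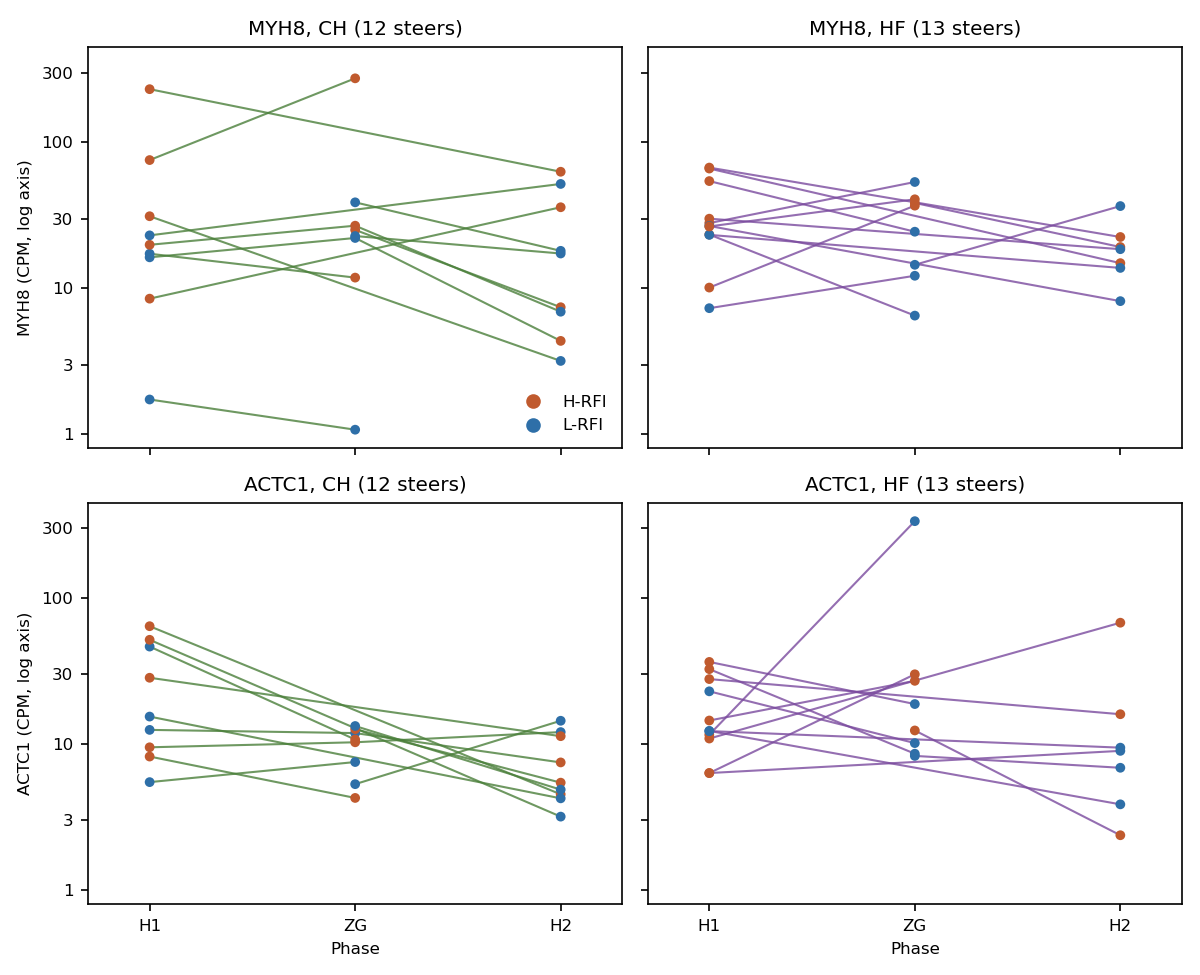
MYH8 and ACTC1 in CPM on a log axis in steers with libraries of more than 1 period, each line joining the libraries of 1 steer. MYH8 goes down from ZG to H2 in 5 of 5 CH steers and from H1 to H2 in 5 of 5 HF steers, and ACTC1 climbs steeply in HF steers 2065 and 1811.

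Whether a level stayed with the steer was examined in the 25 steers with more than 1 library, after subtracting the mean of breed and period. For MYH8 the first and second library had a Pearson r of 0.559 (permutation p = 0.00527, adjusted over 11 relations 0.058) and a Spearman rho of 0.331 (permutation p = 0.107). Without the 2 steers farthest from the median, r was 0.212, so the relation rested on them. Steer 449 was high in both its libraries (75.6 CPM in H1 and 275 CPM in ZG), as was steer 1320 (231 CPM in H1 and 62.9 CPM in H2), and steer 1831 was low in both (1.73 and 1.07 CPM). For ACTC1, r was -0.177 (permutation p = 0.404) and rho was -0.172 (permutation p = 0.41), and r without the 2 farthest was -0.0901.

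A steer with an earlier library had been biopsied before, and both genes are known for their return after muscle injury. Levels of steers with and without an earlier library differed in mean log2(CPM + 0.5) by between -0.72 and 0.54 over the 2 genes and 4 sets (ZG and H2 of each breed), and the adjusted p of the exact permutation tests lay between 0.857 and 0.91. In HF-ZG, for instance, the median ACTC1 level was 22.9 CPM in the 6 steers with an earlier library and 22.1 CPM in the 13 others, and the 2 highest libraries fell 1 in each set. The study reports more steers chosen for biopsy in each breed and period than have libraries in the series. Steers without an earlier library may therefore also have been biopsied before, so the sets cannot be read as biopsied and not biopsied. Whether the later biopsy was taken near the earlier one is not given in the sources used here.

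No relation between the 2 genes was detected across steers. Over 77 steers, r between the mean log2(CPM + 0.5) of MYH8 and of ACTC1 was -0.0227 (permutation p = 0.844) and rho was -0.0848 (permutation p = 0.463), and without the 2 steers farthest in MYH8 r was -0.0496. Within the 6 sets of breed and period, rho went from -0.512 in HF-H2 to 0.437 in HF-ZG, and no relation passed after adjustment (lowest adjusted p = 0.34). Of the 10 libraries highest in each gene, 1 was shared, that of CH-H1 steer 1320 with 231 CPM of MYH8 and 64.1 CPM of ACTC1. The opposite case was CH-H2 steer 419, with 165 CPM of MYH8 and 1.97 CPM of ACTC1, the lowest ACTC1 level of all 104 libraries.

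**Figure D4:**
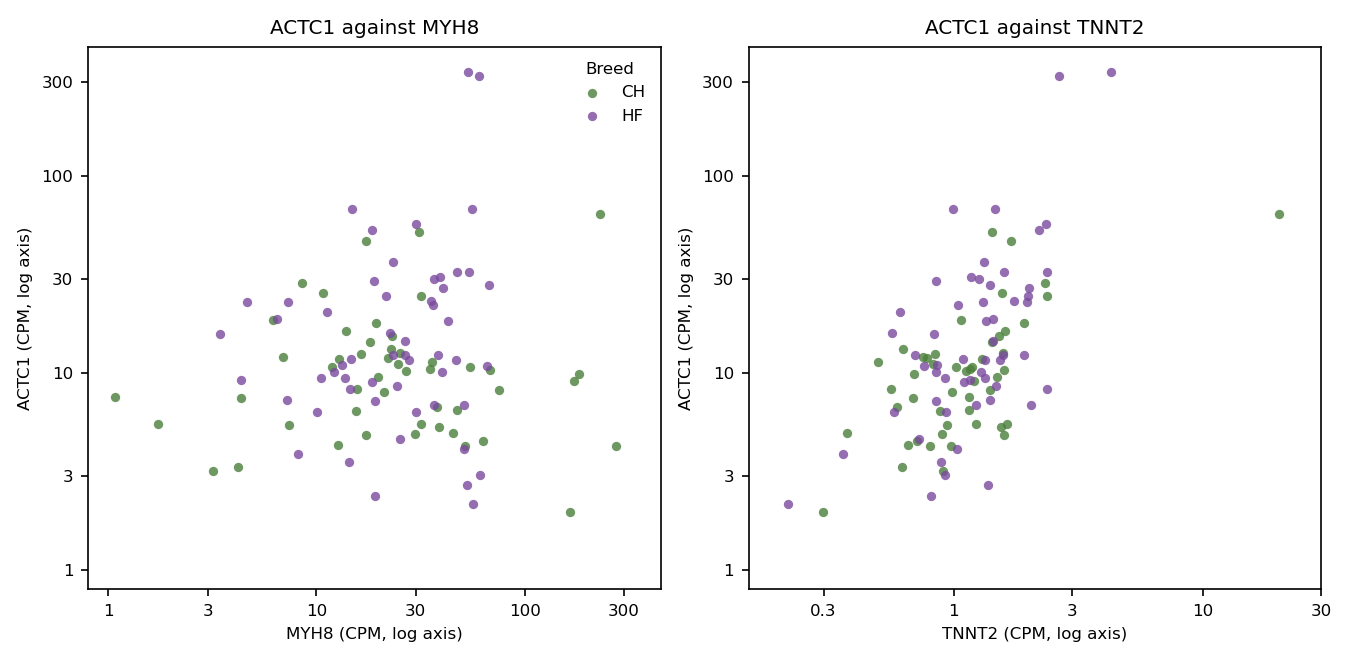
Each of the 104 libraries by its MYH8 level (x axis) and ACTC1 level (y axis), and, in the right panel, by its level of TNNT2 (cardiac troponin T) and ACTC1, all in CPM on log axes and coloured by breed. The libraries highest in MYH8 lie mostly at ordinary or low ACTC1 levels. Those of steers 2065 and 1961, highest in ACTC1, held the 17th and the 12th place of 104 in MYH8. CH-H1 steer 1320, at 231 CPM of MYH8 and 20.2 CPM of TNNT2, is high in all 3 genes.

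Other genes of fetal, regenerating or denervated muscle were read from a list of 28, of which only 5 could be matched to an identifier, since the study names those 5 itself, as genes it picked from these samples. They are TNNT2 (cardiac troponin T, also made by embryonic skeletal muscle), MYH6 (the cardiac alpha-myosin heavy chain), MYL6B (a slow-muscle and non-muscle myosin light chain), CSRP3 (muscle LIM protein of the Z-disc) and CHRND (the delta subunit of the acetylcholine receptor at the nerve-muscle synapse). TNNT2 was too low to be tested between RFI classes in H2 of either breed and between breeds in H2. By edgeR's quasi-likelihood test 0 of these 5 passed the thresholds in any RFI or breed comparison, which called 0% and 0.01% to 1.03% of all genes. An unadjusted p under 0.05 was found for 5 of their 28 values between RFI classes and 4 of 14 between breeds, where 0.725% to 11.6% and 5.77% to 13.8% of all genes had one. Between periods 1 of 30 values was called, in a comparison that called 1.72% of genes: TNNT2 was lower in CH-H2 (median 0.734 CPM, 0.299 to 1.60) than in CH-H1 (median 1.46 CPM, 0.823 to 20.2), with a log2 fold change of -1.29 ± 0.39 (adjusted p = 0.0831), the comparison in which ACTC1 fell by 1.28. The median log2 fold change of the 5 genes there was -0.16, against -0.02 over all genes tested. The 20.2 CPM of TNNT2 was that of CH-H1 steer 1320, and the next library of CH-H1 had 2.38 CPM. The TNNT2 call without steer 1320 was not tested.

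In the 5 other comparisons of RFI classes, breeds or periods that tested TNNT2 and in which the ACTC1 value lay at least as far from 0 as -0.91, TNNT2 had values of the same sign that were not called by edgeR. They were 0.59 ± 0.30 for L-RFI against H-RFI in HF-ZG (adjusted p = 0.381), 0.51 ± 0.20 for HF against CH on ZG (adjusted p = 0.249), -0.86 ± 0.35 from H1 to ZG in CH (adjusted p = 0.134), 0.62 ± 0.21 from H1 to ZG in HF (adjusted p = 0.249) and -0.56 ± 0.23 from ZG to H2 in HF (adjusted p = 0.153). All but the change in CH include the HF-ZG libraries, where steers 2065 and 1961 led both ACTC1 and TNNT2. Without these 2 steers the ACTC1 values of those comparisons were, in the same order, -0.37, 1.00, 0.26 and -0.26. The TNNT2 values without them were not tested, and the bound of -0.91 is itself an ACTC1 value of these data. For HF-H2, where ACTC1 was at -1.76 between RFI classes, the TNNT2 medians went the other way, with 1.13 CPM in L-RFI and 0.842 CPM in H-RFI steers. CHRND had 1.35 ± 0.38 from H1 to ZG in HF (adjusted p = 0.109), with medians of 1.39 CPM (0.741 to 5.71) and 3.31 CPM (0.258 to 9.77).

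In CPM, TNNT2 was also the named gene whose level ran closest to that of ACTC1. Over the 104 libraries, which share depth and library composition, their Spearman rho was 0.52, the 43rd highest of 10290 genes, with values between 0.02 (CH-ZG) and 0.72 (CH-H1) within the sets of breed and period. The 3 libraries highest in TNNT2 were steers 1320 (20.2 CPM), 2065 (4.30 CPM) and 1961 (2.65 CPM), and all 3 were among the 5 highest in ACTC1. INHA (a subunit of inhibin) and CSRP3 followed with rho of 0.50 and 0.47. After TMM scaling INHA and CD248 (rho 0.52 each) stood above TNNT2 (0.51, the 107th highest). The highest rho of all, 0.66, was that of ENSBTAG00000024000, which has no name in the list used here. These rank correlations are descriptions across libraries and carry no test.

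For MYH8 the closest genes depended on the scaling. In CPM its median rho with all genes was 0.41, and 3066 genes exceeded 0.5. After TMM scaling the median was 0.03, and the highest was 0.60 for ENSBTAG00000007090, which was also the highest in CPM (0.72). MYH4, its neighbour in the myosin cluster, encodes the fast type IIb myosin heavy chain and was the 1 gene of 22 on the adult sarcomere list that could be matched. Its rho with MYH8 was 0.39 in CPM over all libraries and between 0.22 and 0.65 within the sets. MYH4 was highest in CH-H1 steer 1101 (220 CPM against a median of 3.24 CPM), which had 172 CPM of MYH8, and 3rd highest in CH-H1 steer 1320 (121 CPM). Reads cannot be divided between these near-identical neighbours beyond the unique ones, so shared levels of the pair remain uncertain.

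MYH4 itself was called in 4 comparisons, in each of which the medians lay close and a few libraries stood far above the rest. In H1 the HF libraries had a median of 3.85 CPM (1.03 to 8.55) and the CH libraries one of 4.78 CPM (1.53 to 220), with a log2 fold change of -3.18 ± 0.57 (edgeR adjusted p = 0.00644). In CH-H1, 5 libraries held 45.2 to 220 CPM and the others at most 6.87 CPM. On ZG the medians were 2.72 CPM (0.538 to 4.16) in HF and 3.28 CPM (1.54 to 53.4) in CH (-1.37 ± 0.31, edgeR adjusted p = 0.0911), and the change from H1 to ZG in CH was -2.20 ± 0.72 (adjusted p = 0.0669). From ZG to H2 in HF the fitted value was positive (1.33 ± 0.40, edgeR adjusted p = 0.0464) while the median was 2.72 CPM in ZG and 2.32 CPM in H2, and steer 2266 held 75.6 CPM in H2 against 4.58 CPM in the next library. These calls without the high libraries were not tested. In the same 4 comparisons the MYH8 values were -0.62, -0.78, 0.36 and -0.19, and none was called.

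Steers 1961 and 2065, which led ACTC1 on grass in HF, were both high in several of the listed genes. They had 60.5 and 53.5 CPM of MYH8, the 12th and the 17th highest of 104. For the heart-muscle gene MYH6 they held the 2nd and the 63rd place (669 and 275 CPM), for CSRP3 the 6th and the 15th, for MYL6B the 10th and the 4th, and for CHRND the 4th and the 6th. Adipocyte markers were high in both too, with the 15th and the 8th place for CIDEC, the 18th and the 14th for FABP4 and the 21st and the 10th for THRSP. Steer 449, highest in MYH8, had the lowest CHRND level of all libraries (0.182 CPM) and a TNNT2 level under the median (0.803 against 1.17 CPM, place 83 of 104). It also had the 4th highest MYH6 level (572 CPM) and the 7th highest CSRP3 level (537 CPM).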

How the data were processed

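The authors deposited raw read counts for every gene of each library, made from 50-base reads of stranded mRNA libraries. Per the study's methods and the labels, reads were checked with FastQC (0.11.5), trimmed, aligned with STAR (2.5.1) and counted with its GeneCounts mode on Ensembl release 87. The genome is named ARS-UCD1.2 in the methods and UMD3.1 in the submitters' processing notes, so no coordinates or sequences are given. No normalization or filter had been applied by the authors. Reads in entries that name no gene (12.1% to 54.3%, median 21.0%) stayed out of library sizes and tests. The reverse-strand counts, a median of 99.0% of stranded gene counts, were used. The opposite strand held 0.359% of MYH8 and 0.0886% of ACTC1 counts, and the number of identical library pairs was 0.

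Gene names came from the study's own lists, which pair Ensembl identifiers with symbols, and gene order from RefSeq's table of assembly ARS-UCD2.0. The 2 genes, the gene lists and the markers were chosen with earlier results of these data known. The genes named were the 2 members, the listed muscle genes, the called and the leading marker genes, and those with the highest rank correlation to each member. Genes that reached 1 CPM in 50% or more of the libraries of a comparison were kept, with TMM scaling. RFI classes (within breed and period), breeds (within period) and periods (within breed) were compared with edgeR's quasi-likelihood test, the last 2 with RFI class as a covariate, and the interaction with limma voom with the steer as a random effect. A call needed a Benjamini-Hochberg adjusted p under 0.1 over all genes kept and a fold change above 1.5. Single values were compared on log2(CPM + 0.5) by two-sided permutation tests, exact where a group held under 10 libraries and otherwise with 1e+05 resamples. For RFI classes, breeds and periods their adjusted p covered only the comparisons of that kind for 1 gene, and calls by permutation used it. Groups came from the labels for breed, diet and RFI, and the steer from the library titles. Same-numbered libraries of different periods come from the same steer, which is the replicate block of the alternatives (correlation within steers -0.107 in CH, 0.354 in HF and 0.128 over both). Where a steer gave 2 or 3 libraries, tests without the block treat them as separate animals.

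Alternatives were DESeq2, edgeR's exact test, RLE size factors, filterByExpr, no filter, unstranded counts, all libraries of the series, the steer block, the permutation and sign-flip tests, other pseudocounts and leaving out each library of a comparison in turn. Added after seeing the data were the fits without steers 1961 and 2065 in HF-ZG, and leaving out single libraries in the fits between breeds on ZG and between periods in CH. Also added were the block for the mean RFI value and for the differences between RFI values, the permutation test for the mean RFI value, and TMM-scaled permutation tests (TMM factors 0.490 to 1.56). The fits were tested on simulated counts with changes of known size. Tests ran in R 4.3.3 with limma 3.58.1, edgeR 4.0.16 and DESeq2 1.42.0, and in Python 3.11.15 with scipy 1.17.1, numpy 2.4.6 and matplotlib 3.10.9.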

Additional observations from a re-analysis of the deposited data

Results flagged for a closer look

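In 22 combinations of gene and group with 4 to 10 libraries, the highest or the lowest library stood apart from the nearest other by more than Dixon's 95% critical value in 4, always at the high end. Chance alone picks about 1 in 20 such groups where values are normally distributed, whereas CPM are skewed to high values. On the log2(CPM + 0.5) scale 0 of these 4 passed, with gaps of 0.258 to 0.458 of the range, and 1 other did, the low MYH8 library of steer 1831 in CH-ZG L-RFI (1.07 CPM, next 12.7 CPM). The HF-H1 H-RFI group, with 11 libraries, was not tested.

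MYH8 accounted for 3 of the 4, all in CH. In CH-H1 H-RFI, steer 1320 had 231 CPM and the next steer 75.6 CPM. In CH-H1 L-RFI, steer 1101 had 172 CPM and the next 23.0 CPM. In CH-H2 H-RFI, steer 419 had 165 CPM and the next 62.9 CPM. Of these 3 steers only 1320 had another library that was kept, with 62.9 CPM in H2.

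For ACTC1, steer 1811 of HF-H2 H-RFI had 67.8 CPM and the next steer 29.1 CPM. Its H1 library had 10.9 CPM. The 321 and 336 CPM of steers 1961 and 2065 in HF-ZG L-RFI were not picked out, because these libraries lie close to each other.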

How the results depend on the processing

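Of 388 alternative values for 49 results, 360 kept the direction and the call, and of 574 fits that left out 1 library 529 did. Most of these results were not called to begin with, so for them a kept call means that they stayed uncalled. The called ones were ACTC1 in HF against CH on ZG and in CH from H1 to ZG and to H2. Leaving out 1 library, they were uncalled in 22 of 36, 10 of 49 and 0 of 49 fits. All 61 MYH8 values of L-RFI against H-RFI were negative outside the fits that left out 1 library. Depth did not leave either gene without reads in any library. The cause of the changes below was not tested.

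In log2 units, ACTC1 in HF against CH on ZG was 2.08 with all libraries of the series and 1.00 without steers 1961 and 2065, both not called, and 1.67 to 2.14 leaving out 1 library. The call ended (edgeR adjusted p 0.103 to 0.163) without any 1 of steers 1100, 1483, 1484, 1492, 1816, 1831, 1834, 307, 427, 437, 449, 545 and 788 (CH) or 1639, 1961, 2064, 2065, 2069, 2272, 5605, 5612 and 5616 (HF). ACTC1 from H1 to ZG in CH was not called with no filter (-0.91) or with the replicate block (-0.72). Within steers it was -0.49, where a call needed a sign-flip p under 0.05. Pairs of periods with 5 or fewer steers, such as this one (smallest possible p 0.0625), could not reach that. The fitted value lay between -1.02 and -0.73 leaving out 1 library, uncalled (adjusted p 0.103 to 0.141) without steer 1320, 1816, 581 or 856 of H1 or 1483, 1831, 1834, 1843, 437 or 545 of ZG. ACTC1 from H1 to H2 in CH was not called with all libraries of the series (-1.32) or within steers (-1.82).

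In HF, ACTC1 was called from H1 to ZG by DESeq2 (1.51), and from ZG to H2 by DESeq2 (-1.36), with the replicate block (-1.20) and by permutation (-1.36). From H1 to H2 it turned negative with the replicate block (-0.40), by permutation (-0.95, called) and after TMM scaling (-0.58). These permutation calls were adjusted over the comparisons between periods of this 1 gene, not over all genes, and used CPM without TMM scaling. On that scale the median of all genes moved by -0.25 from ZG to H2 and by -0.39 from H1 to H2 in HF. After TMM scaling neither change was called (permutation adjusted p 0.108 and 0.208). The replicate block changed no other call. Other signs turned for values near 0. Without steers 1961 and 2065, ACTC1 was -0.37 for RFI in HF-ZG, -0.35 for the mean RFI value and 1.12 for CH-H2 minus HF-ZG, and MYH8 was -0.034 from H1 to ZG in HF. By permutation and after TMM scaling, ACTC1 for RFI in CH-ZG was -0.18 and -0.0091, and MYH8 in HF against CH was 0.15 and 0.088 in H1 and 0.035 and 0.13 in H2. MYH8 was -0.077 by permutation from H1 to ZG in HF and 0.16 within steers from ZG to H2 in HF. ACTC1 was -0.0040 with RLE factors for the mean RFI value, and -0.15 with all libraries of the series for steers with an earlier library in HF-H2. Leaving out 1 library, ACTC1 for RFI in CH-ZG spanned -0.19 to 0.20, MYH8 from H1 to H2 in CH -0.77 to 0.30, and MYH8 for RFI -1.93 to 0.0092 in CH-H1 and, for HF-ZG, -0.18 to 0.12.

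The numbers of genes called also moved. Against 110, 52 and 1 genes between breeds in H1, ZG and H2, DESeq2 called 197, 199 and 42. On ZG there were 170 without the RFI covariate, 110 with no filter, 1 with all libraries of the series and 0 without steers 1961 and 2065, and in H2 there were 2 with no filter. Between periods in CH, all libraries gave 243 for ZG to H2 (105) and 45 for H1 to H2 (173), where no filter gave 283 and DESeq2 266. Leaving out 1 library, the calls on ZG between breeds ran from 1 to 198 (without steer 2242), and in CH from 144 (1843) to 618 (318) for H1 to ZG (385), 66 (1484) to 135 for ZG to H2 and 112 (419) to 227 for H1 to H2. In HF, DESeq2 gave 86 for H1 to ZG (52). The RFI comparisons with 0 calls gave up to 3 by edgeR's exact test (CH-H2). With all libraries the mean RFI value had 5 calls and the differences between the 6 comparisons 253, and with no filter the latter had 4 and CH-H2 minus HF-ZG had 1.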
